A study of Homo sapiens with 12 samples.

Results

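The glycolysis and hypoxia genes are a set of 41 human genes chosen by name: the enzymes that turn glucose into lactate, the carriers of glucose and lactate, the subunits and oxygen sensors of the hypoxia-inducible factors (HIF), and well-known HIF targets. They were found by symbol among 29094 RefSeq rows of a count table, where all 41 had a row and all 41 passed the filter on low counts. The cells were MCF10AT, a human mammary epithelial line transformed by HRAS carrying G12V. Each of the 4 groups comprised 3 RNA-seq libraries: NS1 and NS2 carried a non-silencing control, and EP300 KD1 and EP300 KD2 each carried a different shRNA against EP300. All 4 groups were transduced with lentiviral particles, selected with puromycin and then kept in the same medium with horse serum, epidermal growth factor, insulin, cholera toxin and hydrocortisone. The labels name no oxygen treatment and do not say whether each line was a pool or a clone, so a difference between lines and an effect of a hairpin cannot be told apart within 1 comparison. EP300 KD1 was compared with NS1 and EP300 KD2 with NS2, taking the control of the same number as the corresponding one.

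Glycolysis splits a hexose into trioses and ends in pyruvate, which is reduced to lactate or enters the mitochondria, and most of its steps have several isoenzymes encoded by separate genes. When oxygen is plentiful, prolyl hydroxylases (EGLN proteins) mark the HIF alpha subunits for destruction through VHL, and when it is scarce these subunits pair with ARNT and bind short ACGTG or GCGTG sequences near their target genes. The histone acetyltransferase p300, the product of EP300, and its relative CBP, the product of CREBBP, bind the transactivation domains of HIF alpha subunits as coactivators.

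The targeted gene was lower in both shRNA lines. EP300 stood at 172, 177 and 167 CPM in NS1 and 108, 106 and 108 CPM in EP300 KD1, and at 165, 180.3 and 177 CPM in NS2 and 95.1, 99.95 and 92.3 CPM in EP300 KD2. CPM are counts scaled to library size (TMM), a level that depends on gene length and so is compared across libraries and not across genes. The libraries did not overlap, and EP300 fell by 0.68 on the log2 scale (SE 0.035, edgeR adjusted p = 2.6e-12) with the first hairpin and by 0.86 (SE 0.035, adjusted p = 1.1e-13) with the second. CREBBP did not pass the test in either comparison, with log2 changes of -0.028 and -0.063. Library totals ran from 31396653 to 45606950 counts. Of the 8 mammary epithelial markers, EPCAM, CDH1, KRT5, KRT17, KRT18 and TP63 were present in all 12 libraries, and KRT14 reached at most 1.11 CPM. In each shRNA line 7 of 8 were called lower, against 32.3% of all genes with the first hairpin and 29.9% with the second. With library totals alone 6 were called lower with the second. The remaining marker, KRT8, was called higher with the first hairpin, from 2.2 to 3.32 CPM, and did not pass with the second. A further KRT8 row held 7 counts, so its low level is uncertain. Whether the replicates were separate cultures is not stated, so the p-values reflect library-to-library spread only, possibly of technical origin.

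With the first hairpin the set moved mostly upward. Of the 41 genes, 26 rose and 8 fell in EP300 KD1 against NS1 (edgeR quasi-likelihood test, adjusted p under 0.05 over 13424 genes), with a median log2 change of 0.16. Over all genes tested 64.9% were called, 32.6% higher and 32.3% lower, with a median of -0.0058. The largest rises were those of the glucose carrier SLC2A3, the enolase isoenzyme ENO2, the stress-response gene NDRG1, the secreted lipase inhibitor ANGPTL4 and the membrane carbonic anhydrase CA12. These 5 were the members at least 2-fold higher, against 5.85% of all genes, and no member was at least 2-fold lower, against 4.34%. Libraries of NS1 and EP300 KD1 did not overlap for 33 of 41 members and for 67.7% of all genes.

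With the second hairpin the same set did not move one way. In EP300 KD2 against NS2, 8 members rose and 19 fell, with a median log2 change of -0.055, where 57.8% of all genes were called, 27.9% higher and 29.9% lower, with a median of -0.0021. SLC2A3 and ENO2 were again at least 2-fold higher, against 2.95% of all genes, and the prolyl hydroxylase EGLN3 was at least 2-fold lower, against 5.13%. Many of these changes were small, and their split depended on the scaling of the libraries: with upper-quartile factors 12 members were higher and 15 lower, and with library totals alone 14 were higher and 13 lower. Among all genes the calls were 3744 higher and 4018 lower with TMM scaling, 4630 and 3358 with upper-quartile factors, and 4979 and 3144 with library totals alone. Over the 22 other settings tried, 20 of 41 members kept the same outcome of the test in all of them with the second hairpin, against 30 of 41 with the first. Libraries did not overlap for 27 of 41 members and for 63.5% of all genes.

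The change itself differed between the hairpins for most members. A test of the difference, (EP300 KD2 minus NS2) minus (EP300 KD1 minus NS1), called 30 of 41 members, 29 with the lower change in EP300 KD2 and 1, the mutase PGAM1, with the higher. Over all genes 50.8% were called, 29.2% lower and 21.6% higher, and the median difference was -0.34 log2 for the members and -0.033 for all genes. The change was at least 2-fold lower with the second hairpin for 5 members, SLC2A3, ALDOC, CA12, NDRG1 and BNIP3L (3.91% of all genes), and at least 2-fold higher for 0 (1.8%). With library totals alone the difference was called lower for 27 members and higher for 5. The hairpins called 7 members higher together (15.3% of all genes) and 6 lower together (17.3%). Another 10 members were higher with the first hairpin and lower with the second (5.5% of all genes), and 0 went the other way (5.68%).

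**Figure D1:**
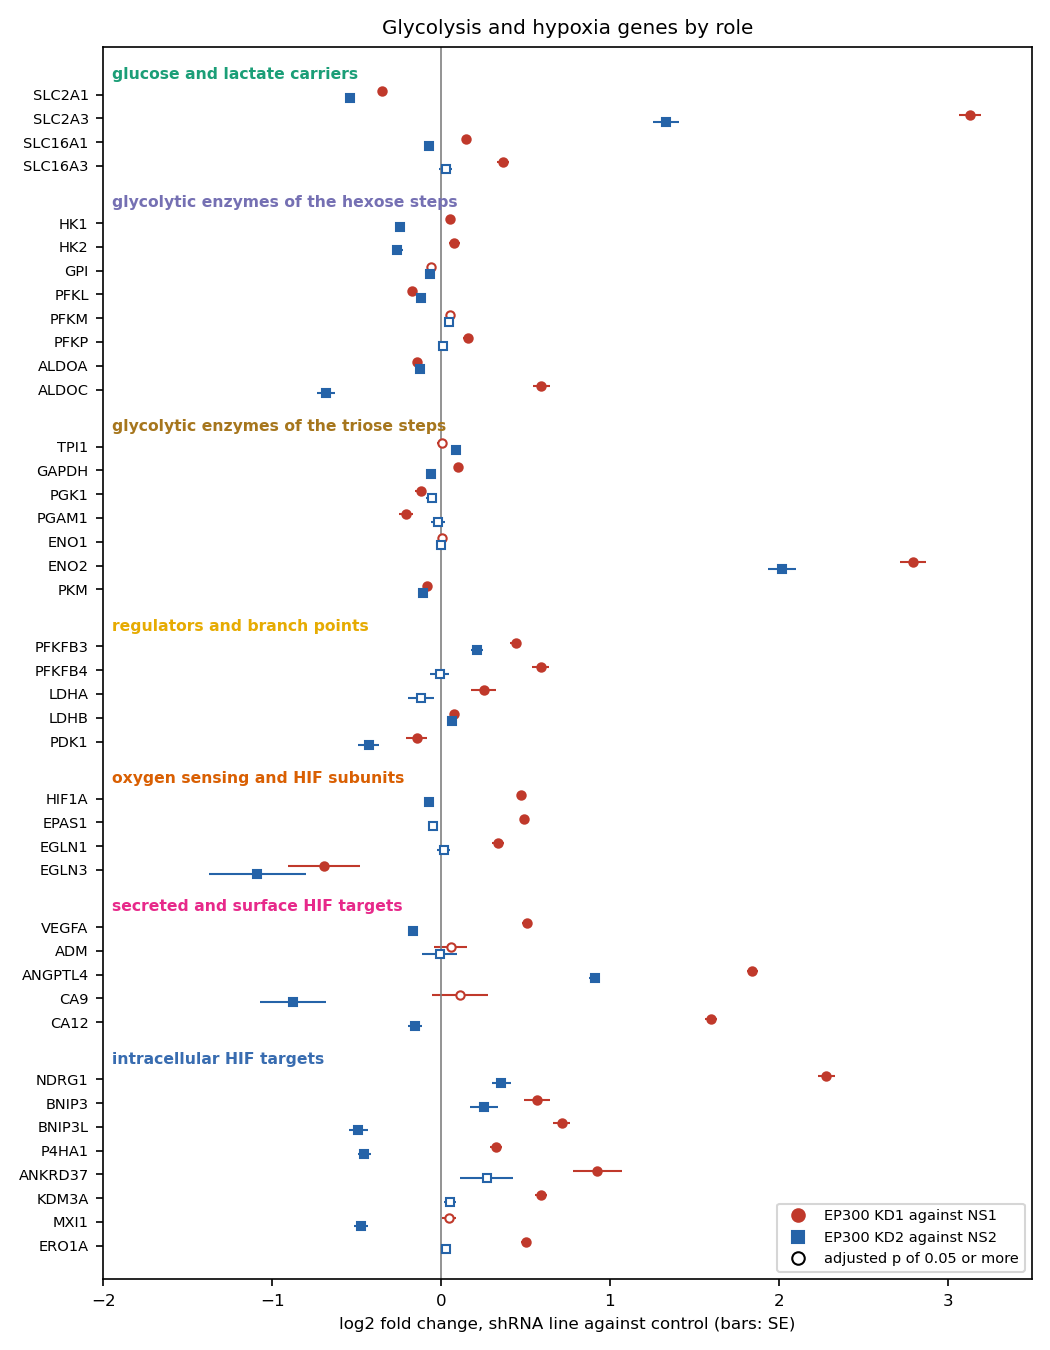
Log2 fold change of each of the 41 members, grouped by role, in EP300 KD1 against NS1 (circles) and EP300 KD2 against NS2 (squares); bars are standard errors of the fit over 3 libraries per group, and open symbols did not pass the adjusted p threshold of 0.05. SLC2A3, ENO2, NDRG1, ANGPTL4 and CA12 lie to the right of 1 with the first hairpin, only SLC2A3 and ENO2 do so with the second, and most enzymes lie close to 0.

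The carriers that bring glucose in changed in opposite ways to each other. SLC2A3, which encodes the high-affinity glucose transporter GLUT3 (chr12:7919230-7936187, GRCh38), stood at 6.48, 5.84 and 5.92 CPM in NS1 and 53.1, 50.0 and 56.8 CPM in EP300 KD1. In the second pair it stood at 5.81, 5.30 and 6.55 CPM in NS2 and 14.3, 15.6 and 14.4 CPM in EP300 KD2. Every shRNA library was above every control library, and the first hairpin's were above the second's. SLC2A3 rose by 3.13 log2 with the first hairpin (SE 0.067, adjusted p = 4.79e-18) and by 1.33 with the second (SE 0.077, adjusted p = 2.13e-11), and the difference of -1.80 passed its test (SE 0.11, adjusted p = 9.07e-11). These changes are 8.78-fold and 2.51-fold.

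SLC2A1, which encodes GLUT1, the widespread basal glucose transporter (chr1:42925353-42958868), fell with both hairpins. Its level was 237, 229 and 235 CPM in NS1 and 179.5, 188 and 183 CPM in EP300 KD1. It was 270.4, 272 and 272 CPM in NS2 and 186, 186 and 188 CPM in EP300 KD2, so that the shRNA groups sat side by side while the controls differed. The fall was 0.35 log2 with the first hairpin (SE 0.024, adjusted p = 1.62e-10) and 0.54 with the second (SE 0.024, adjusted p = 2.88e-13). NS2 was above NS1 by 0.22 log2 (adjusted p = 1.29e-06). The log2 ratio of SLC2A3 to SLC2A1 therefore changed by 3.48 and by 1.87, from -5.27 ± 0.066 in NS1 to -1.78 ± 0.12 in EP300 KD1 and from -5.53 ± 0.15 in NS2 to -3.66 ± 0.073 in EP300 KD2 (SD, n = 3).

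The monocarboxylate carriers, which move lactate across the plasma membrane, both rose with the first hairpin and did not with the second. SLC16A1 (MCT1) stood at 266, 263 and 265 CPM in NS1 and 294, 284 and 302 CPM in EP300 KD1, without overlap, and rose by 0.15 log2 (SE 0.025, adjusted p = 4.24e-05). It stood at 286, 292 and 283 CPM in NS2 and 274, 269.8 and 277 CPM in EP300 KD2, a log2 change of -0.070 (SE 0.025, adjusted p = 0.0221) whose call was lost in 9 of 22 other settings. SLC16A3 (MCT4), which exports lactate, stood at 483.6, 430.3 and 473.7 CPM in NS1 and 588.5, 611.1 and 591.0 CPM in EP300 KD1, and at 576.7, 545.3 and 566.1 CPM in NS2 and 590.1, 580.3 and 548.9 CPM in EP300 KD2. NS1 stood below the other 3 groups, and the libraries of NS2 and EP300 KD2 overlapped. SLC16A3 rose by 0.37 log2 with the first hairpin (SE 0.037, adjusted p = 4.67e-08) and did not pass the test with the second, at 0.027 (SE 0.036, adjusted p = 0.555). NS2 was above NS1 by 0.28 (adjusted p = 1.2e-05), and against both controls pooled the change with the second hairpin was 0.17 (adjusted p = 0.000118). It was also called higher with library totals alone (0.095) and without the low-count filter (0.077). Of the 4 carriers 3 rose and 1 fell with the first hairpin, and 1 rose and 2 fell with the second. Beside the counts of this and each later class, 32.6% of all genes were called higher and 32.3% lower with the first hairpin. With the second these shares were 27.9% and 29.9%.

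Most enzymes of the hexose steps changed little, apart from ALDOC with both hairpins and HK1 and HK2 with the second. Of 8 genes, 4 rose and 2 fell with the first hairpin, and 0 rose and 6 fell with the second (2 higher and 4 lower with library totals alone). The median log2 changes were 0.055 and -0.12. The largest changes were those of ALDOC (chr17:28573120-28576895), the aldolase isoenzyme best known from brain. It stood at 46.3, 44.0 and 53.0 CPM in NS1 and 73.8, 70.4 and 73.5 CPM in EP300 KD1, and at 44.0, 44.7 and 46.7 CPM in NS2 and 28.1, 27.8 and 28.7 CPM in EP300 KD2. The controls lay between the shRNA lines, above the second and below the first, with no overlap. ALDOC rose by 0.59 log2 with the first hairpin (SE 0.049, adjusted p = 2.86e-09) and fell by 0.68 with the second (SE 0.055, adjusted p = 2.81e-09). Its difference between hairpins was -1.27 (SE 0.073, adjusted p = 5.54e-11).

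ALDOA, the main aldolase, fell by 0.14 and 0.13 log2, so that the log2 ratio of ALDOC to ALDOA changed by 0.75 with the first hairpin and by -0.55 with the second. Genes on the other strand share 10.1% of the exonic bases of ALDOC, and other annotated genes share 53.5% of those of ALDOA. HK1, a hexokinase found in most tissues, stood at 474, 479.5 and 475 CPM in NS1 and 489.7, 503 and 491 CPM in EP300 KD1, and at 478, 482 and 477 CPM in NS2 and 404, 409 and 400.0 CPM in EP300 KD2. Its libraries did not overlap in either pair, with log2 changes of 0.055 (SE 0.020, adjusted p = 0.0251) and -0.25 (SE 0.021, adjusted p = 4.81e-09). HK2, the hexokinase that is a classic HIF target, stood at 123, 122 and 121 CPM in NS1 and 136, 121 and 129 CPM in EP300 KD1, where the groups overlapped. It stood at 131, 126 and 129 CPM in NS2 and 110.0, 107 and 106 CPM in EP300 KD2, where they did not. HK2 changed by 0.079 log2 (SE 0.033, adjusted p = 0.044) and -0.26 (SE 0.034, adjusted p = 2.1e-06). The rises of HK1 and HK2 with the first hairpin lost their calls in 5 and 9 of 22 other settings, while their falls with the second kept them in all 22. The log2 ratio of HK2 to HK1 changed by 0.024 and -0.014. The isomerase GPI and the phosphofructokinases PFKL, PFKM and PFKP, which commit the sugar to glycolysis, ranged from -0.17 (PFKL) to 0.16 (PFKP) with the first hairpin and from -0.12 (PFKL) to 0.046 (PFKM, not called) with the second. The change of GPI with the second hairpin was -0.065 (adjusted p = 0.0476), a call lost in 14 of 22 other settings.

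In the triose steps, a single isoenzyme rose strongly. ENO2 (chr12:6914580-6923697), the enolase isoenzyme usually called neuron-specific, stood at 2.77, 2.74 and 2.47 CPM in NS1 and 18.4, 17.9 and 18.9 CPM in EP300 KD1, and at 2.43, 2.26 and 2.24 CPM in NS2 and 9.42, 9.53 and 9.17 CPM in EP300 KD2. Both shRNA lines lay wholly above both controls. ENO2 rose by 2.79 log2 or 6.94-fold with the first hairpin (SE 0.076, adjusted p = 1.68e-16) and by 2.02 or 4.05-fold with the second (SE 0.081, adjusted p = 8.9e-14). ENO1, the enolase of most tissues, did not pass the test, with log2 changes of 0.0050 (SE 0.021) and 0.0017 (SE 0.021), although the second was called higher with upper-quartile factors (0.052) and library totals alone (0.070). The log2 ratio of ENO2 to ENO1 moved from -10.7 ± 0.099 in NS1 to -7.90 ± 0.022 in EP300 KD1 and from -10.8 ± 0.099 in NS2 to -8.81 ± 0.055 in EP300 KD2 (SD, n = 3), changes of 2.79 and 2.02.

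The remaining triose enzymes stayed within 0.21 log2 of their controls. GAPDH, the dehydrogenase often used as a reference gene, stood at 6563, 6498 and 6745 CPM in NS1 and 7138, 6911 and 7156 CPM in EP300 KD1, without overlap, and rose by 0.099 log2 (SE 0.022, adjusted p = 0.000811). It stood at 6115, 6536 and 6416 CPM in NS2 and 6051, 6114 and 6136 CPM in EP300 KD2, where the groups overlapped, a change of -0.059 (SE 0.022, adjusted p = 0.0308) that was 0.0093 with library totals alone and lost its call in 11 of 22 other settings. PKM, the pyruvate kinase of most tissues, stood at 3061, 3052 and 3090 CPM in NS1 and 2897, 2910 and 2886 CPM in EP300 KD1, and at 2862, 2901 and 2919 CPM in NS2 and 2670, 2676 and 2714 CPM in EP300 KD2. It fell in both pairs without overlap, by 0.082 (SE 0.017, adjusted p = 0.000276) and 0.11 (SE 0.017, adjusted p = 1.88e-05). With the first hairpin PGK1, which makes the first ATP of the pathway, changed by -0.12 and PGAM1 by -0.21, and both fell, while TPI1 did not pass the test at 0.0073. With the second TPI1 rose by 0.086, and PGK1 at -0.055 and PGAM1 at -0.018 did not pass. Against both controls pooled, TPI1 stood at 0.10 with the first hairpin (adjusted p = 0.00129) and -0.010 with the second (adjusted p = 0.746), and PGK1 at -0.036 (adjusted p = 0.255) and -0.14 (adjusted p = 0.00018). Named pseudogenes are many for GAPDH (62) and PGAM1 (13), and reads shared with them could be counted elsewhere, so their small changes are uncertain.

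**Figure D2:**
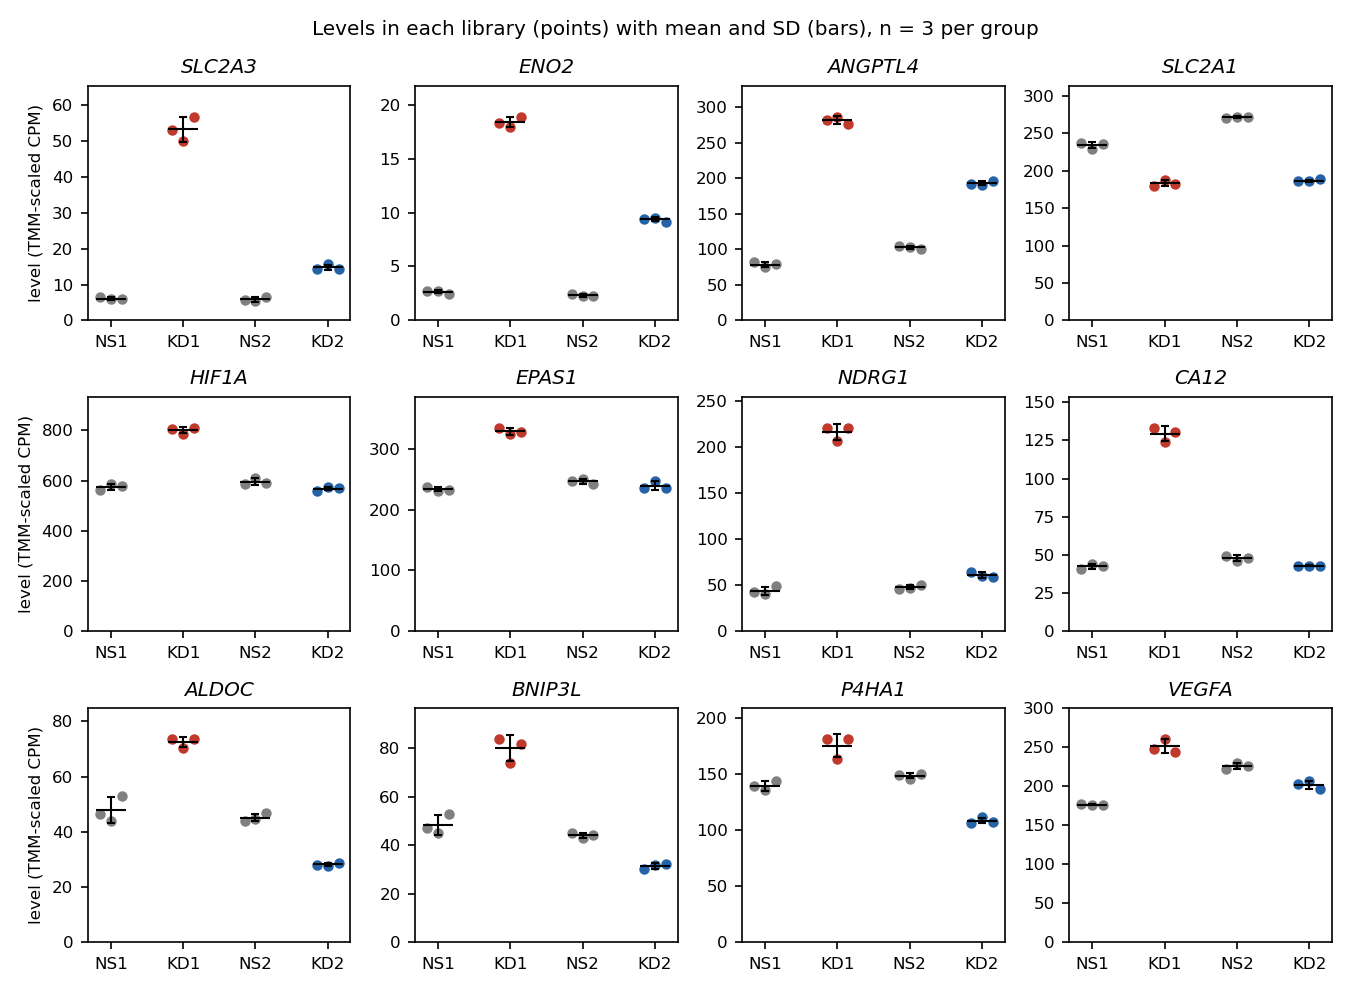
Level (TMM-scaled CPM, axes from 0) of 12 members in each of the 3 libraries of NS1, EP300 KD1, NS2 and EP300 KD2 (points), with mean and SD (bars). SLC2A3, ENO2 and ANGPTL4 are above the control in both shRNA lines, SLC2A1 is below it in both, HIF1A, EPAS1, NDRG1 and CA12 stand out in EP300 KD1, and ALDOC, BNIP3L, P4HA1 and VEGFA lie above NS1 in EP300 KD1 and below NS2 in EP300 KD2.

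Among the regulators and branch points, 4 of 5 genes rose and 1 fell with the first hairpin, and 2 rose and 1 fell with the second. PFKFB3 and PFKFB4 make and remove the fructose bisphosphate that activates phosphofructokinase. PFKFB3 stood at 60.4, 63.0 and 60.2 CPM in NS1 and 84.7, 84.1 and 80.5 CPM in EP300 KD1, and at 63.8, 58.7 and 61.5 CPM in NS2 and 71.9, 68.5 and 72.7 CPM in EP300 KD2. It rose in both pairs without overlap, by 0.44 log2 (SE 0.035, adjusted p = 1.86e-09) and 0.21 (SE 0.036, adjusted p = 4.81e-05). PFKFB4 stood at 23.0, 21.7 and 22.7 CPM in NS1 and 36.1, 32.7 and 33.0 CPM in EP300 KD1, and at 16.9, 17.1 and 17.9 CPM in NS2 and 18.6, 16.8 and 16.0 CPM in EP300 KD2. It rose with the first hairpin by 0.59 (SE 0.051, adjusted p = 6.55e-09) and stood at -0.0075 with the second, where it did not pass (SE 0.058, adjusted p = 0.926), and the difference of -0.60 passed (adjusted p = 2.86e-06). NS2 lay 0.38 below NS1, and against both controls pooled the change of PFKFB4 with the second hairpin was -0.20 (adjusted p = 0.00167).

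LDHB, the lactate dehydrogenase subunit that favours pyruvate, rose by 0.076 and 0.063 log2. LDHA, the subunit that favours lactate, rose by 0.25 with the first hairpin and stood at -0.12 with the second, where it did not pass. PDK1, the kinase that shuts the pyruvate dehydrogenase complex, fell by 0.14 (adjusted p = 0.0476) and 0.43 (adjusted p = 9.25e-06), and the first of these calls was lost in 14 of 22 other settings. LDHA and PDK1 have 2 and 3 rows in the table, and rows of symbols with several rows hold only 0.934% of all counts, so the levels of both may be residual and their changes are uncertain. The same holds for ANGPTL4, which has 2 rows.

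Both HIF alpha subunits rose with the first hairpin and not with the second. HIF1A (chr14:61695513-61748258) stood at 563, 588 and 577 CPM in NS1 and 803, 786 and 811 CPM in EP300 KD1, and at 587, 611 and 589 CPM in NS2 and 559.9, 573 and 571 CPM in EP300 KD2. The libraries of EP300 KD1 stood above all others, and those of EP300 KD2 lay just below NS2. HIF1A rose by 0.47 log2 (SE 0.023, adjusted p = 1.35e-12) and changed by -0.069 with the second hairpin (SE 0.023, adjusted p = 0.0168), a call lost in 7 of 22 other settings. EPAS1 (HIF2 alpha, chr2:46297407-46386697) stood at 237, 231 and 232 CPM in NS1 and 335, 324 and 327 CPM in EP300 KD1, and at 248, 250.3 and 242 CPM in NS2 and 235, 247 and 235 CPM in EP300 KD2, where the last 2 groups overlapped. It rose by 0.49 (SE 0.025, adjusted p = 2.93e-12) and did not pass with the second hairpin at -0.046 (SE 0.026, adjusted p = 0.138), though it was called lower without EP300 KD2 replicate 2 (-0.070, adjusted p = 0.0326). The tests of the difference gave -0.54 for HIF1A (adjusted p = 1.2e-10) and -0.54 for EPAS1 (adjusted p = 4.94e-10). The log2 ratio of HIF1A to EPAS1 changed by -0.019 and -0.023.

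The prolyl hydroxylases that sense oxygen did not move together. EGLN1 (PHD2), the main sensor, stood at 49.7, 50.0 and 52.7 CPM in NS1 and 65.8, 60.6 and 66.5 CPM in EP300 KD1, and at 52.5, 52.1 and 50.2 CPM in NS2 and 51.9, 52.5 and 52.1 CPM in EP300 KD2. It rose by 0.34 log2 with the first hairpin (SE 0.037, adjusted p = 1.77e-07) and did not pass with the second at 0.016 (SE 0.038, adjusted p = 0.741). EGLN3 (PHD3), itself a HIF target, had few reads, at 2.36, 2.67 and 3.86 CPM in NS1 and 1.99, 1.32 and 2.26 CPM in EP300 KD1, and at 1.33, 1.02 and 1.48 CPM in NS2 and 0.571, 0.412 and 0.833 CPM in EP300 KD2. It fell by 0.69 (SE 0.21, adjusted p = 0.0086) and 1.09 (SE 0.28, adjusted p = 0.00299), although NS2 itself was 1.23 below NS1 and overlapped EP300 KD1. The fall with the first hairpin lost its call without NS1 replicate 3 (-0.44, adjusted p = 0.0985), without EP300 KD1 replicate 2 (-0.49, adjusted p = 0.0573) and with both controls pooled (-0.076, adjusted p = 0.752).

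Among the secreted and surface HIF targets, 3 of 5 rose with the first hairpin, while 1 rose and 3 fell with the second. ANGPTL4 (chr19:8364155-8374370), a secreted inhibitor of lipoprotein lipase, stood at 81.8, 74.5 and 79.0 CPM in NS1 and 282, 287 and 277 CPM in EP300 KD1, and at 105, 103 and 100.4 CPM in NS2 and 192, 191 and 197 CPM in EP300 KD2. No shRNA library overlapped a control library. A further ANGPTL4 row of the table held 0 counts, so that, as for LDHA and PDK1, the level of ANGPTL4 may be residual and its changes are uncertain. ANGPTL4 rose by 1.84 log2 (SE 0.031, adjusted p = 1.32e-19) and 0.91 (SE 0.031, adjusted p = 5.87e-15), a difference of -0.93 (adjusted p = 2.63e-12). SLC2A3, ENO2 and ANGPTL4 were the members that rose by at least 0.5 log2 with both hairpins, and EGLN3 was the member that fell by as much with both; such agreement in either direction held for 11.2% of all genes.

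CA12 and CA9 are cell-surface carbonic anhydrases that help cells export acid. CA12 (chr15:63321378-63381846) stood at 40.9, 44.3 and 42.9 CPM in NS1 and 133, 124 and 131 CPM in EP300 KD1, and at 49.6, 45.8 and 48.0 CPM in NS2 and 43.0, 43.1 and 42.6 CPM in EP300 KD2. It rose by 1.60 log2 with the first hairpin (SE 0.036, adjusted p = 1.09e-17) and fell by 0.15 with the second (SE 0.040, adjusted p = 0.00247), without overlap in either pair. The fall was not called with library totals alone or with both controls pooled. CA9, whose exons share 38.5% of their bases with ARHGEF39 on the other strand, did not pass with the first hairpin at 0.11 (0.35 against both controls pooled, adjusted p = 0.0434) and fell by 0.88 with the second (adjusted p = 0.000719). Its libraries spread widely, with 22.0 ± 4.94 CPM in NS1 and 23.9 ± 6.97 CPM in EP300 KD1 against 16.0 ± 2.97 CPM in NS2 and 8.67 ± 0.677 CPM in EP300 KD2 (SD, n = 3), and the strand setting of the counting is not given in the sources used here.

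VEGFA, the growth factor for blood vessels, stood at 177, 176 and 176 CPM in NS1 and 248, 261 and 244 CPM in EP300 KD1, and at 223, 230.1 and 226 CPM in NS2 and 203, 207 and 196 CPM in EP300 KD2. It rose by 0.51 log2 with the first hairpin (SE 0.028, adjusted p = 6.32e-12) and fell by 0.17 with the second (SE 0.028, adjusted p = 4.2e-05), without overlap in either pair. NS2 stood 0.36 log2 above NS1 (adjusted p = 1.79e-08), and against both controls pooled the change with the second hairpin was 0.015 (adjusted p = 0.619). ADM, the vasodilator adrenomedullin, passed in neither comparison, with log2 changes of 0.058 (SE 0.098) and -0.0075 (SE 0.10), but against both controls pooled it was called higher with the first hairpin (0.24, adjusted p = 0.019).

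Of the 8 intracellular HIF targets, 7 rose with the first hairpin, and 2 rose and 3 fell with the second. Over all genes 32.6% were called higher with the first hairpin, and 27.9% higher and 29.9% lower with the second. The difference was called for all 8, each lower with the second hairpin, as it was for 29.2% of all genes. The call of this difference was lost for BNIP3 with upper-quartile factors, library totals alone, DESeq2 and 7 of 12 single libraries left out, and for ANKRD37 with DESeq2 and without NS1 replicate 1. NDRG1, a gene induced by stress and differentiation, stood at 42.8, 40.8 and 48.8 CPM in NS1 and 221, 206 and 221 CPM in EP300 KD1, and at 46.0, 47.3 and 50.2 CPM in NS2 and 64.7, 60.4 and 58.6 CPM in EP300 KD2. Both shRNA lines lay above their controls, the first far more so. NDRG1 rose by 2.28 log2 or 4.87-fold (SE 0.051, adjusted p = 9.22e-18) and by 0.36 or 1.28-fold (SE 0.056, adjusted p = 1.83e-05). Its difference of -1.92 was the largest of the 41 members (SE 0.076, adjusted p = 2.8e-13).

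BNIP3 and BNIP3L are related mitochondrial proteins that mark mitochondria for autophagy. BNIP3L stood at 47.4, 45.1 and 53.0 CPM in NS1 and 84.0, 73.9 and 82.0 CPM in EP300 KD1, and at 45.3, 43.2 and 44.1 CPM in NS2 and 30.2, 31.9 and 32.5 CPM in EP300 KD2. It rose by 0.71 log2 with the first hairpin (SE 0.052, adjusted p = 5.07e-10) and fell by 0.49 with the second (SE 0.059, adjusted p = 6.95e-07), with no overlap in either pair. BNIP3, which has 39 named pseudogenes, rose with both, by 0.57 (adjusted p = 2.56e-06) and 0.25 (adjusted p = 0.0156). Its second rise lost its call without NS2 replicate 2 (0.23, adjusted p = 0.0557) and against both controls pooled (0.030, adjusted p = 0.741), where NS2 at 22.1 ± 0.924 CPM lay below NS1 at 29.9 ± 3.12 CPM and EP300 KD2 stood between them at 26.3 ± 1.16 CPM (SD, n = 3). P4HA1, the collagen prolyl hydroxylase subunit, followed BNIP3L rather than BNIP3, at 139, 136 and 144 CPM in NS1 and 182, 164 and 182 CPM in EP300 KD1, and at 149.8, 146 and 150.5 CPM in NS2 and 107, 112 and 108 CPM in EP300 KD2. It rose by 0.33 (SE 0.036, adjusted p = 1.75e-07) and fell by 0.45 (SE 0.037, adjusted p = 3.39e-09).

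ERO1A, the oxidase that forms disulphide bonds in the endoplasmic reticulum, stood at 109.6, 111 and 108 CPM in NS1 and 156, 151 and 159 CPM in EP300 KD1, and at 124, 119.6 and 118 CPM in NS2 and 119.9, 125 and 125 CPM in EP300 KD2, where the last 2 groups overlapped. It rose by 0.50 log2 with the first hairpin (SE 0.029, adjusted p = 1.33e-11) and did not pass with the second at 0.031 (SE 0.029, adjusted p = 0.384). KDM3A, a histone H3 lysine demethylase, rose by 0.59 (adjusted p = 1.66e-11) and did not pass with the second at 0.051 (adjusted p = 0.231). With the second hairpin both were called higher in 4 of 22 other settings. With upper-quartile factors, library totals alone, no low-count filter and both controls pooled, ERO1A stood at 0.081, 0.099, 0.081 and 0.099, and KDM3A at 0.10, 0.12, 0.10 and 0.096. MXI1, an antagonist of MYC, did not pass at 0.049 with the first hairpin and fell by 0.47 with the second (adjusted p = 1.4e-08). It was called higher with the first without EP300 KD1 replicate 2 (0.095, adjusted p = 0.0378) and against both controls pooled (0.090, adjusted p = 0.0295). ANKRD37 had few reads and rose from 1.44 ± 0.328 to 2.77 ± 0.0894 CPM (SD, n = 3), a log2 change of 0.92 (adjusted p = 1.77e-05), against 0.27 with the second hairpin (adjusted p = 0.149), and 35.2% of its exonic bases lie opposite UFSP2.

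The 10 members called higher with the first hairpin and lower with the second were SLC16A1, HK1, HK2, ALDOC, GAPDH, HIF1A, VEGFA, CA12, BNIP3L and P4HA1. Only ALDOC, BNIP3L and P4HA1 kept both calls in all 22 other settings, and the other 7 lost 1 of the calls in at least 1. With upper-quartile factors 7 members were called in these opposite directions (4.60% of all genes), and with library totals alone 6 (3.74%).

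**Figure D3:**
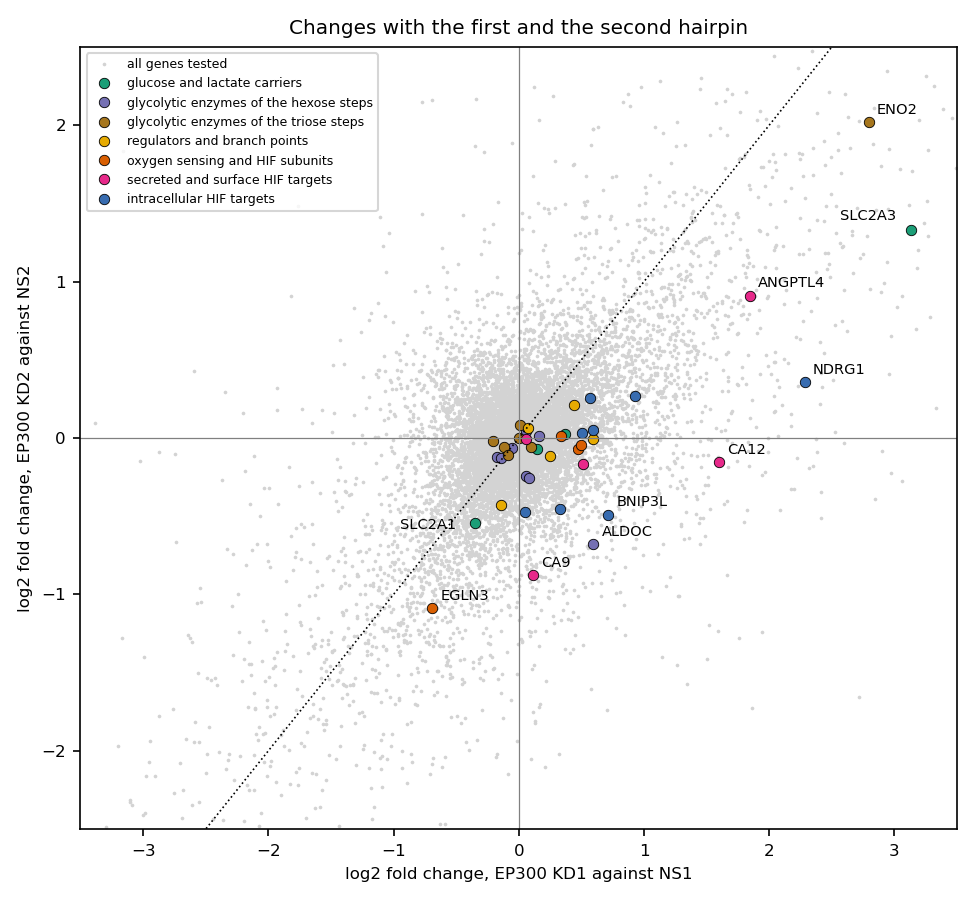
Log2 fold change in EP300 KD1 against NS1 (horizontal) and in EP300 KD2 against NS2 (vertical) for the 41 members, coloured by role, over all genes tested (grey; genes beyond the axes are not drawn); the dotted line marks equal changes. Members lie mostly on or below the dotted line, with NDRG1 and CA12 farthest to the right at small vertical values and ENO2, SLC2A3 and ANGPTL4 raised on both axes.

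Promoter windows are shown for 4 members that hold ACGTG, 2 that rose with both hairpins and 2 that moved in opposite directions, to place the HIF core letters against the start of the gene. They were chosen after their values and motifs were seen. The RefSeq promoter table (GRCh38.p14) held 36 of the 41 members, and SLC2A3, SLC16A1, VEGFA, NDRG1 and BNIP3L were not among them. Windows of at most 29 bases are given 5′ to 3′ on the gene's strand, with each ACGTG, or its reverse complement CACGT, in capitals. ENO2 (chr12:6914450-6914478, motif 118 bases before the start) and ANGPTL4 (chr19:8363909-8363937, 234 before) rose with both hairpins, while ALDOC (chr17:28577118-28577145, 240 before, and chr17:28576907-28576935, 28 before) and P4HA1 (chr10:73096936-73096964, 86 before) rose with the first and fell with the second. In the first ALDOC window ACGTG on one strand overlaps ACGTG on the other.
ENO2: acccgcgctcgtACGTGcgcctccgccgg
ANGPTL4: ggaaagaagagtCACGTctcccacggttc
ALDOC, far window: aagtgcccggCACGTGgtaaagggattg
ALDOC, near window: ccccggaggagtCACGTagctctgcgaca
P4HA1: tgtgatcgagctCACGTagcgagggctgc

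ANGPTL4 held a single match in the 246 bases before its start that overlap no annotated exon (chr19:8363905-8364150, motif in capitals).
ANGPTL4, upstream stretch: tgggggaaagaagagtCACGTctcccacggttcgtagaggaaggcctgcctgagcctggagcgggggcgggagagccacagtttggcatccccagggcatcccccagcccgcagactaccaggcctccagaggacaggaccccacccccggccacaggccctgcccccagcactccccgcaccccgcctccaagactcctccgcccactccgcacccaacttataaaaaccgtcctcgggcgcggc

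Over the 250 bases before each start, read on both strands, ACGTG or GCGTG was found in 24 of 36 member promoters (66.7%), against 56.8% of 10283 promoters of genes tested and 43.1% of all 27305 promoters of the table. ACGTG alone was found in 41.7% of member promoters, 23.1% of those tested and 18.7% of all, and GCGTG in 38.9%, 44.9% and 31.9%. The 2 motifs can overlap on opposite strands. The 12 member windows without either motif include those of SLC2A1, EGLN3, HK1, MXI1 and PDK1. A single start per gene was searched, and for some members, among them GPI, PGAM1, KDM3A and SLC16A3, the window lies inside the gene. A window without either motif therefore need not cover every promoter of its gene. For 34 of 36 members the bases just after the start lay in a transcript of the gene. A match is a run of letters and not a measured binding site.

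The TMM-scaled level was also summed over each role class. Such a sum is weighted toward the members with the most reads and is compared across libraries only. Summed over all 41 members, the level was 23760 ± 361 CPM for NS1 against 25180 ± 363 CPM for EP300 KD1 (mean ± SD of 3 libraries). For the second pair it was 23090 ± 360 CPM for NS2 against 22300 ± 164 CPM for EP300 KD2. The triose enzymes carried most of this sum. TMM factors ran from 0.979 to 0.986 for NS2 and from 1.026 to 1.033 for EP300 KD2. The lower sum in EP300 KD2 therefore depends on this scaling and is not a lower share of the reads. The secreted and surface HIF targets summed to 326 ± 5.59 CPM in NS1 and 693 ± 3.62 in EP300 KD1, and to 398 ± 2.29 in NS2 and 451 ± 2.20 in EP300 KD2. The intracellular HIF targets summed to 439 ± 14.3 CPM in NS1 and 758 ± 35.9 in EP300 KD1, and to 451 ± 5.67 in NS2 and 412 ± 2.58 in EP300 KD2. Sums of both classes were above NS1 in every EP300 KD1 library, whereas in EP300 KD2 the first class lay above NS2 and the second below it. ANGPTL4 alone carried the rise of the first class in EP300 KD2: without it the secreted and surface targets summed to 295.0 ± 1.27 CPM in NS2 and 258.2 ± 5.21 in EP300 KD2, and to 247.2 ± 4.47 in NS1 and 410.9 ± 1.88 in EP300 KD1. In bulk RNA, fewer cells of a type and less RNA per cell cannot be told apart.

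**Figure D4:**
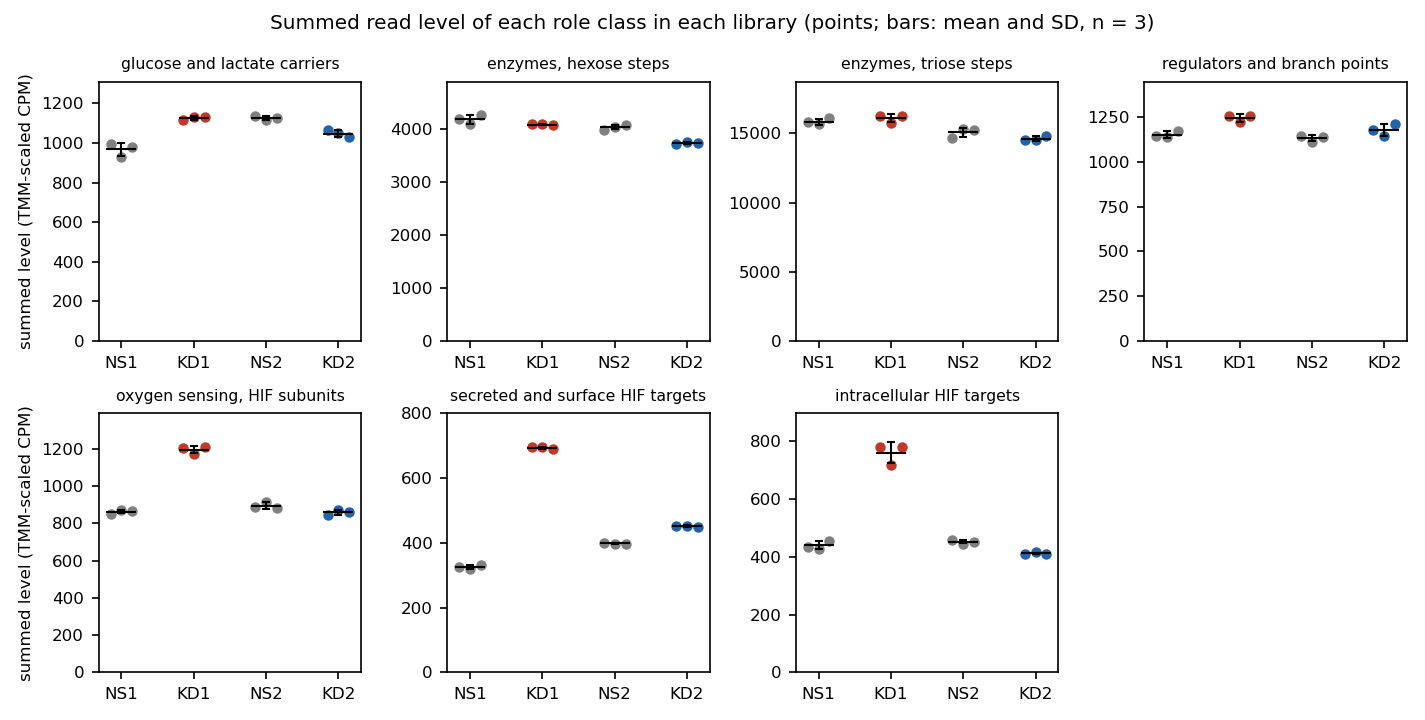
Summed level (TMM-scaled CPM, axes from 0) of the members of each of the 7 role classes in every library (points), with mean and SD (bars, 3 libraries per group). The sums for oxygen sensing, secreted and surface HIF targets and intracellular HIF targets stand apart in EP300 KD1, while the enzyme sums stay close to those of the controls.

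Some markers of other cell types also changed in EP300 KD1, in both directions. Beside their calls, 32.6% of all genes were called higher and 32.3% lower with the first hairpin, and 27.9% and 29.9% with the second. The 6 fibroblast markers summed to 16.4 to 17.8 CPM in NS1 and 59.6 to 63.9 CPM in EP300 KD1, and to 13.1 to 14.3 CPM in NS2 and 20.7 to 22.4 CPM in EP300 KD2. DCN rose 5.92-fold with the first hairpin, from 7.31 to 43.3 CPM, and COL1A1 rose 1.81-fold, from 8.97 to 16.3 CPM. PDGFRB was also called higher with the first hairpin, from 0.696 to 1.51 CPM, but stayed at or below 1.57 CPM in every library. With the second hairpin 2 of the 3 tested fibroblast markers were called higher, and PDGFRB was not. COL1A2, COL3A1 and LUM had 0 counts in all 12 libraries. The 6 leukocyte markers summed to 11.8 to 14.2 CPM in NS1 and 38.3 to 44.3 CPM in EP300 KD1, and to 16.7 to 20.0 CPM in NS2 and 22.4 to 24.0 CPM in EP300 KD2, nearly all of it from CD68, which rose 3.18-fold with the first hairpin, whereas PTPRC and CD3E had 3 and 1 counts in all. The 5 endothelial markers were lower in sum, from 28.8 to 32.9 CPM in NS1 to 13.1 to 15.7 CPM in EP300 KD1, and from 38.6 to 40.6 CPM in NS2 to 6.40 to 7.04 CPM in EP300 KD2. That sum was nearly all PECAM1, which fell by 1.60 and 2.84 log2. TEK rose by 4.08 and 1.89 log2, from 0.246 to 4.14 CPM and from 0.257 to 0.958 CPM, and KDR rose by 0.71 with the first hairpin, so that 2 of 3 tested endothelial markers rose and 1 fell there. The tested fibroblast markers thus rose together with the first hairpin, whereas the leukocyte and endothelial markers did not move together. Some markers of each list were absent or nearly so. The part of these shifts in the results on the members was not tested.

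The control lines differed from each other for several members, which shows the size of differences between lines that both carry a non-silencing control. In NS2 against NS1, which shares its libraries with the comparisons above, 8 members were higher and 9 lower (27.5% of all genes were called), with 7 higher and 14 lower under upper-quartile factors. EGLN3 was the 1 member at least 2-fold lower in NS2 (1.19% of all genes), and 0 were at least 2-fold higher (0.104%). The largest differences that passed were -1.23 log2 for EGLN3 (adjusted p = 0.00046), -0.45 for BNIP3 (adjusted p = 0.000494), 0.39 for ANGPTL4 (adjusted p = 5.23e-08), -0.38 for PFKFB4 (adjusted p = 4.89e-05), -0.37 for ADM (adjusted p = 0.0108) and 0.36 for VEGFA. SLC2A3 at -0.045, ENO2 at -0.20 and NDRG1 at 0.11 did not pass between the controls. CA12 differed by 0.16 (adjusted p = 0.00451), ALDOC by -0.089 without passing, and HIF1A by 0.049 without passing.

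The other genes of these pathways were counted from lists of related isoenzymes, branch pathways and HIF genes. Beside these counts, 32.6% of all genes were called higher and 32.3% lower with the first hairpin, and 27.9% and 29.9% with the second. Of 8 tested other isoenzymes and carriers, 2 rose and 3 fell with the first hairpin and as many with the second. SLC2A6, a lysosomal hexose carrier, rose by 1.97 log2 with the first (adjusted p = 3.76e-10) and by 0.53 with the second (adjusted p = 0.00671). HKDC1, a hexokinase relative, fell by 1.23 (adjusted p = 5.25e-08) and 0.56 (adjusted p = 0.0019). BSG, the chaperone of the lactate carriers, fell by 0.20 and 0.12. Of 16 genes of the pentose phosphate pathway, glycogen and gluconeogenesis, 5 rose and 9 fell with the first hairpin and 3 rose and 11 fell with the second (5 and 8 with library totals alone). PC, the carboxylase that turns pyruvate into oxaloacetate, fell by 0.44 and 1.42, and PYGB, a glycogen phosphorylase, by 0.50 and 0.94. PCK2, a gluconeogenic enzyme of mitochondria, fell by 0.39 and 0.85. Of 12 genes for the entry of pyruvate into mitochondria, 2 rose and 7 fell with the first hairpin and 1 rose and 8 fell with the second. PDHA1, a subunit of pyruvate dehydrogenase, fell by 0.35 and 0.19, and MPC1, a subunit of the mitochondrial pyruvate carrier, fell by 1.09 and 1.33, with an uncertain level since it has 2 rows.

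Of 13 other HIF pathway components, 6 rose and 6 fell with the first hairpin, and 4 rose and 6 fell with the second (7 and 5 with library totals alone). ARNT2, a partner of the HIF alpha subunits, rose with both, 2.60-fold (adjusted p = 3.97e-12) and 2.14-fold (adjusted p = 1.98e-10). ARNT rose by 0.36 with the first hairpin and did not pass with the second at 0.057, CITED4, which binds p300 and CBP, fell by 0.49 and 0.15, and VHL did not pass with the first at 0.031 and fell by 0.22 with the second. Of the 30 other HIF targets tested, 14 rose and 10 fell with the first hairpin, 4 rose and 23 fell with the second (4 and 20 with library totals alone), and the difference was lower with the second for 23 and higher for 2. Over all genes the difference was called lower for 29.2% and higher for 21.6%. The medians of the 30 targets were 0.042 and -0.32 log2, against -0.0058 and -0.0021 for all genes. LOXL2, a lysyl oxidase that crosslinks collagen, rose by 1.34 and 0.42. GPRC5A, a retinoid-induced receptor, fell by 1.74 and 0.78, and STC2, a secreted stanniocalcin, by 0.92 and 1.29. TMEM45A changed by -0.85 and -2.93. Of these 30 genes 9 were called higher with the first hairpin and lower with the second, beside 10 of the 41 members and 5.5% of all genes.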

How the data were processed

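RNA of 12 MCF10AT libraries was sequenced from kits named as stranded mRNA kits in the labels' protocols. Alignment by the authors used HISAT2 2.1.0 and hg38, and counting used featureCounts, per the submitters' processing notes, which name neither the strand setting nor the handling of multi-mapping reads. The authors deposited raw whole-number counts for 29094 RefSeq rows. Symbols came from RefSeq and GENCODE tables; for a symbol with several rows, the row with the most counts was used. Rows without a symbol held 0.313% of counts.

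Counts were filtered with filterByExpr (13424 genes left), scaled by TMM and fitted with edgeR 4.0.16 (quasi-likelihood, 1 coefficient per group, 8 residual degrees of freedom), with Benjamini-Hochberg adjustment over all genes tested and a threshold of 0.05. Standard errors were derived from the test statistic. On simulated data the procedure called 86% of 2-fold and 20% of 1.1-fold changes in the first comparison, and 90% and 30% in the second. Of unchanged genes it called 0.0153% and 0.0307%. The simulation changed few genes, unlike these data, so it cannot bear on the choice of scaling. Counts of replicate libraries varied beyond sampling noise in every pair of a group, with a chi-square of 1.84 to 4.45 per degree of freedom, and all were kept as separate samples. DESeq2 1.42.0, limma 3.58.1, other scalings, no filter, single libraries left out, a replicate block, pooled controls, the compared groups alone and summed rows were the alternatives.

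The members, gene lists and tests were chosen with earlier results of these data known. Named in full were members past the threshold with both hairpins by at least 0.5 log2, members called in opposite directions, the 2 with the smallest p of each role class, and HIF1A, EPAS1, EGLN1 and EGLN3. From each list of other pathway genes, up to 3 with the smallest p per hairpin could be named.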

Additional observations from a re-analysis of the deposited data

Results flagged for a closer look

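For 30 of the 41 members the change with the second hairpin differed from the change with the first in a test of the difference itself (edgeR quasi-likelihood test, adjusted p under 0.05 over all genes), where 50.8% of all genes did. Differences are changes with EP300 KD2 minus changes with EP300 KD1, in log2. Each difference also holds the difference between the control lines, where NS2 was higher than NS1 for 8 members and lower for 9. The carriers SLC2A3 (-1.80), SLC16A3 (-0.34), SLC16A1 (-0.22) and SLC2A1 (-0.19) were among the 30. For SLC16A3 and SLC2A1, NS2 stood above NS1 by 0.28 and 0.22. Their means in EP300 KD1 and EP300 KD2 were 597 and 573 CPM for SLC16A3, and 183 and 187 CPM for SLC2A1. So were the enzymes of the hexose steps ALDOC (-1.27), HK2 (-0.34), HK1 (-0.30) and PFKP (-0.15), and the enzymes of the triose steps ENO2 (-0.77), GAPDH (-0.16) and PGAM1 (0.19), the last being the only member with the higher change in EP300 KD2. Regulators and branch points with a difference were PFKFB4 (-0.60), LDHA (-0.37), PDK1 (-0.28) and PFKFB3 (-0.23). HIF1A (-0.54), EPAS1 (-0.54) and EGLN1 (-0.32) differed among the oxygen-sensing genes. The secreted and surface targets CA12 (-1.75), CA9 (-0.99), ANGPTL4 (-0.93) and VEGFA (-0.68) differed, and so did the intracellular targets NDRG1 (-1.92), BNIP3L (-1.20), P4HA1 (-0.78), ANKRD37 (-0.65), KDM3A (-0.54), MXI1 (-0.52), ERO1A (-0.47) and BNIP3 (-0.31). The call of the difference was lost for PFKP with library totals alone (-0.079, adjusted p = 0.0977) and without the low-count filter (-0.093, adjusted p = 0.056). For PDK1 it was lost without that filter (-0.23, adjusted p = 0.0748) and with DESeq2 (-0.26, adjusted p = 0.0543). Losses for BNIP3 and ANKRD37 are given above.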

How the results depend on the processing

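The upward split with the first hairpin held in every setting tried, at 24 to 30 members higher and 6 to 9 lower. With the second hairpin the split moved with scaling and filter: 8 members higher and 19 lower became 12 and 14 without the low-count filter and 14 and 13 with library totals alone, and 14 against 8 higher is a shift of more than 1.5 times. The count of members whose change was higher with the second hairpin was 1, and became 2 with upper-quartile factors, 2 with DESeq2, 4 without the filter and 5 with library totals alone, and ran from 1 to 3 over single libraries left out (3 without NS1 replicate 2). Members lower in NS2 than in NS1 were 9, and became 14 with either upper-quartile factors or library totals alone. No scaling moved the median of all genes by over 0.0686 log2. Over all 41 members the called changes that turned sign were 4, all with the second hairpin: GAPDH (0.0093 log2) and GPI (0.0032) under library totals alone, and VEGFA (0.015) and TPI1 (-0.010) against both controls pooled. The cause of these shifts was not tested. Of 66 results on the 22 members named in full, 54 kept their call in all settings. Leaving out single libraries gave 24 to 26 members higher and 6 to 9 lower with the first hairpin, 6 to 8 and 15 to 19 with the second, and 27 to 29 lower for the difference.

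Replicates with the same number did not deviate together (correlations from -0.040 to 0.022), so that numbers were not taken to pair the samples. With the replicate block, 26 members were higher and 8 lower with the first hairpin, 8 and 21 with the second, and 2 higher and 29 lower for the difference. Counting depth limits EGLN3 and ANKRD37 most, at 0.41 to 3.86 CPM.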
